A study of Mus musculus with 4 samples.

Results

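The chromatin of 8 genes for secreted growth factors and endothelin-1 was examined in mouse macrophages before and after a short exposure to IL-4. The genes are Hbegf, Areg, Ereg, Edn1, Igf1, Pdgfa, Pdgfb and Vegfa. Peaks of the 4 ATAC-seq libraries that shared at least 1 bp were joined into regions, and a region belonged to one of these genes when the peak with the greatest height in it carried that gene's name in the deposited annotation, which names the gene of the nearest transcription start site (TSS). This gave 56 regions out of 60710. None of the 23 regions that could be tested differed between the groups at an adjusted p under 0.05. After quantile normalisation, the widest difference was at an intergenic region −28187 bp from the Igf1 TSS. The deposited peak heights there were 6.22 and 5.25 in the control and 15.44 and 9.97 in the IL-4 libraries. Without normalisation the Hbegf promoter differed more, in the other direction (log2 difference −1.275 against 1.118 at this Igf1 region).

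ATAC-seq cuts open chromatin with the Tn5 transposase, so that peaks of sequenced fragments mark accessible DNA. The cells were bone marrow-derived macrophages (BMDMs) of wild-type mice 8 to 12 weeks old, grown for 6 days with L929 supernatant, a source of M-CSF, in every sample. The control group (n = 2 libraries) received nothing further, and the IL-4 group (n = 2 libraries) received IL-4 at 20 ng/ml for 1 h. The methods call the replicates biological, and the labels do not say whether each came from a separate mouse, so p-values describe the spread between these libraries.

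The 8 genes encode proteins that macrophages and other cells release to act on neighbouring cells. Hbegf, Areg and Ereg encode ligands of the EGF receptor family, which drive epithelial and stromal growth and repair. Edn1 encodes endothelin-1, a vasoconstrictor peptide. Igf1 encodes a growth hormone-regulated growth factor that macrophages also make and that belongs to the repair programme of IL-4-stimulated macrophages. Pdgfa and Pdgfb encode chains of the platelet-derived growth factors, mitogens of mesenchymal cells, and Vegfa encodes the main growth factor of blood vessel endothelium. IL-4 acts through the transcription factor STAT6, which binds DNA at TTC and GAA half-sites held 4 bases apart, whereas most other STAT proteins prefer a spacing of 3 bases.

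The sequences under some of the regions described below are shown first, chosen for a STAT6 match at Edn1 or Igf1, a lower IL-4 height at Igf1 or peaks in 1 group alone. They were read on the + strand of GRCm38.p6, the assembly behind mm10. The first pair held a STAT6 match, and it was shown only because both IL-4 heights there were above both control heights. A match at Edn1 or Igf1 in a region where the groups overlapped was left out. The pair therefore cannot show how matches and heights go together. The −41968 bp region had the lowest IL-4 to control ratio among the Igf1 regions, and the last pair of sequences came from regions whose peaks were confined to 1 group and seen in both of its libraries. Capitals mark STAT6 matches in the first pair and AP-1 matches (TGAGTCA or TGACTCA) in the −41968 bp sequence, and both strands were searched. In the first sequence the run ACTTCCTCTGAA joins a PU.1 match (ACTTCCTC, the reverse complement of GAGGAAGT) with the STAT6 match TTCCTCTGAA that overlaps it. The Igf1 −41968 bp sequence is the last 300 bases of a slightly longer region, and the Edn1 sequence stops at the last base before the gene.
Igf1 −28187 bp, chr10:87830709-87830978: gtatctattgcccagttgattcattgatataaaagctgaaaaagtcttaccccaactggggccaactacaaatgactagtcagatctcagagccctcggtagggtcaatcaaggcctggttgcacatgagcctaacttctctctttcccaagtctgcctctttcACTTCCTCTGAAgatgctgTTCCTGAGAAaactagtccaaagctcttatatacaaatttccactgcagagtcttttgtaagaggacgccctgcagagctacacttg
Edn1 +85 bp, chr13:42301245-42301475: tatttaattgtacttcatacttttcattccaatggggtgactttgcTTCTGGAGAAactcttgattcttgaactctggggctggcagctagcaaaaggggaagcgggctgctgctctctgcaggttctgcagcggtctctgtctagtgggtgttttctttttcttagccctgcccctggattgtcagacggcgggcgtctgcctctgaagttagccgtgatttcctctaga
Igf1 −41968 bp, chr10:87816955-87817254: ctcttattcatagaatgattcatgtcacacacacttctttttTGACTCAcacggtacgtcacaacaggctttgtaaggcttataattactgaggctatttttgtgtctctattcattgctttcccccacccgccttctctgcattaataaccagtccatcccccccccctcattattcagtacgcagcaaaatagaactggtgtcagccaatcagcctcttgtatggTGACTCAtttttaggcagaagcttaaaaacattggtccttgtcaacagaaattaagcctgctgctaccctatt
Igf1 −126887 bp, chr10:87732090-87732240: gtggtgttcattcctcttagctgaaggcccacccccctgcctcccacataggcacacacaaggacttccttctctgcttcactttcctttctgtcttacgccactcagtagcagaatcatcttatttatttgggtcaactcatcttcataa
Vegfa +71410 bp, chr17:45953652-45953852: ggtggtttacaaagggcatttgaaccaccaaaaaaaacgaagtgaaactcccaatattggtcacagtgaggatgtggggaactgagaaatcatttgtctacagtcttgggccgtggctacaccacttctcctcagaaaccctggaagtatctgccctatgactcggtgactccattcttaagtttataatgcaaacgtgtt

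The first sequence thus held a pair of STAT6 matches, at 87830875 to 87830884 and at 87830892 to 87830901 of chromosome 10. Of the 7639 regions of like length, 8.60% held at least 1 STAT6 match. The corresponding share was 10.6% for the Edn1 promoter. Among regions as long as the −41968 bp region, 24.1% held an AP-1 match. The last pair of sequences had none of the 4 motifs searched. A match describes letters and does not show that a factor was bound.

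The quantity compared is peak height, read as −log10 of the MACS2 q-value, which reflects the evidence for a peak within its own library and is not a read count. The libraries held 39462 to 45250 peaks, and their depth is unknown. IL-4 replicate 2 had the lowest peaks. Its median height was 6.41 against 7.46 to 8.04 in the other 3 libraries, so heights were log2-transformed and quantile-normalised over all 25442 regions with a peak in every library before any difference was tested. Of 10 listed macrophage marker symbols, 5 (Emr1, Cd68, Lyz2, Fcgr1 and Cebpa) had a promoter region in all 4 libraries, and 4 had none. Those 4 were Adgre1 and Spi1, for which the annotation uses older symbols, and Csf1r and Itgam, which had regions but none annotated as a promoter. Of the listed markers of other cells, 16 had no promoter region, whereas Klrb1c, of natural killer cells, and S100a8, of neutrophils, had one in all 4 libraries. The part of other cells in the results was not tested, and in bulk material fewer cells with an open region and less opening per cell cannot be told apart.

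The regions were spread unevenly over the genes. Igf1 had 19 regions and Edn1 had 11, whereas Pdgfb had 7, Pdgfa 6, Vegfa 5, Areg 4, Hbegf 3 and Ereg 1. As many regions as Igf1 has were found at 1.3% of the 16244 genes with a region, where the median gene had 2. By their annotation the regions lay mostly outside genes, although the intergenic regions at Pdgfa −2708 bp and Pdgfb −9627 bp fell within the gene spans given below. Intergenic regions made up 64.3% (36 regions) against 35.8% of all regions, and promoter regions made up 14.3% (8 regions) against 18.8%. The map of distances shows this layout.

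**Figure D1:**
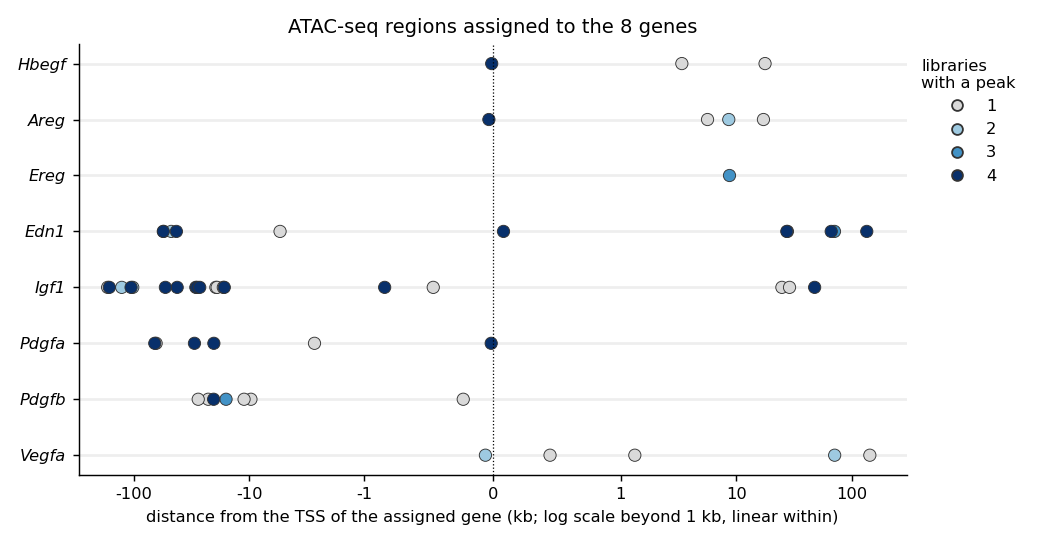
Each of the 56 regions is placed by its distance from the TSS of its gene in kb (log scale beyond 1 kb), and the shade gives the number of libraries with a peak. Igf1 and Edn1 had strings of distal regions present in all 4 libraries, whereas Vegfa and Ereg had no region present in all 4.

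A peak was present in all 4 libraries at 23 of the 56 regions (41.1%, against 41.9% of all regions). It was present in 3 libraries at 3 regions, in 2 at 7 and in a single library at 23 (41.1%, against 29.6% of all regions). The single-library regions were low, with heights of 2.49 to 7.57 and a median of 4.10. The control libraries held 37 and 36 peaks of these genes and the IL-4 libraries 34 and 33. The means of 36.5 ± 0.707 and 33.5 ± 0.707 (SD, n = 2) thus differed by −3 peaks (two-sided exact permutation p = 0.3333, the smallest that 2 against 2 libraries allow). The ranges did not overlap, but the libraries also differed in total peak number. Per 10000 peaks of the library, the numbers were 8.18 and 8.59 in the control group and 8.10 and 8.36 in the IL-4 group, and these ranges overlapped.

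At the 23 regions with a peak in every library, 0 were past the threshold in either direction (limma, adjusted p of 0.3891 to 0.997). The background was as sparse, with 0.0157% of the 25442 regions called higher and 0.00786% called lower in the IL-4 group. Without adjustment, 3 of the 23 regions (13.0%) had a limma p under 0.05, against 8.28% of all regions. The normalised heights of the groups did not overlap at 7 regions with higher IL-4 values (30.4%, against 19.2% of all regions) and at 4 with lower values (17.4%, against 18.6%). The log2 difference, IL-4 minus control, was above 0 at 14 regions and below 0 at 9, with a median of 0.26 against 0.00 over all regions (−0.0006482 before rounding). The standard errors of these differences were 0.216 to 0.573, against an SD of 0.504 of the differences over all regions.

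**Figure D2:**
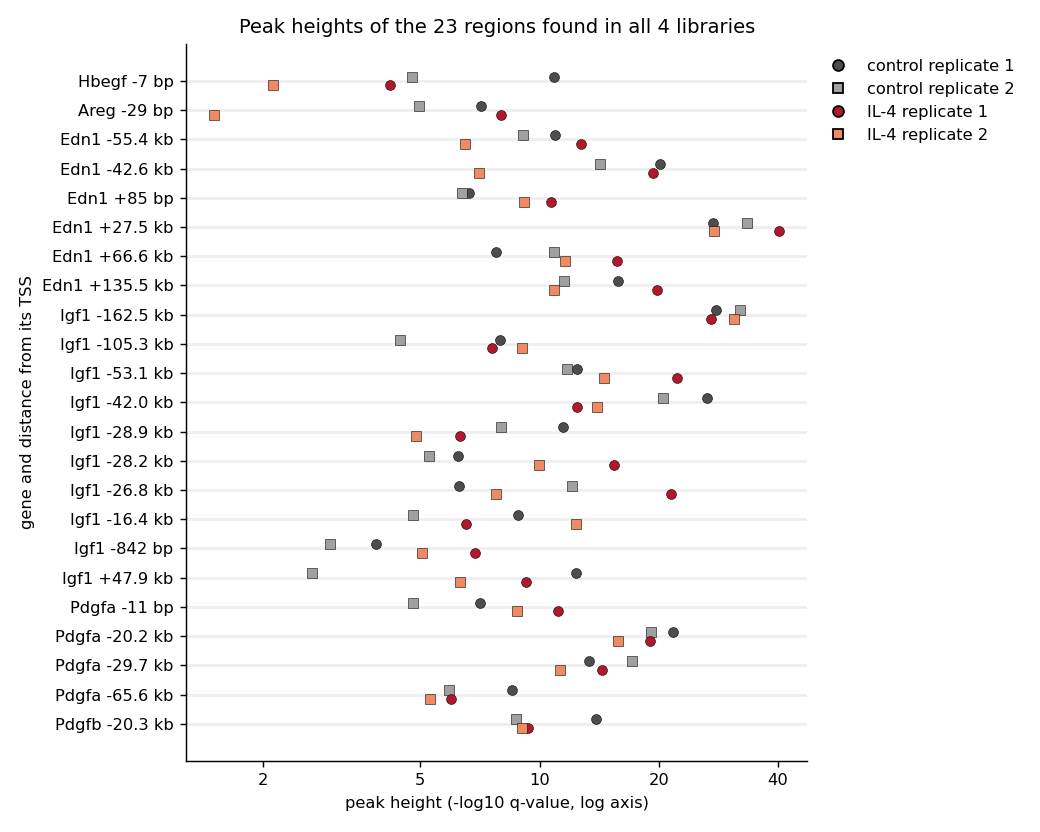
Peak heights (−log10 q-value, log axis) of the 23 regions found in every library, with circles for replicate 1, squares for replicate 2, grey for control and red or orange for IL-4. Both IL-4 points lie to the right of both control points at the Igf1 −28187 bp and −53084 bp regions and at the Edn1, Igf1 and Pdgfa promoters, among others. They lie to the left at the Hbegf promoter, the Igf1 −41968 and −28906 bp regions and the Pdgfa −20176 bp region.

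The EGF receptor ligands were examined first. Hbegf, which encodes heparin-binding EGF-like growth factor, lies on chromosome 18 at 36504927 to 36515805. Its promoter region at 36515716 to 36515927, −7 bp from the TSS, had heights of 10.90 and 4.76 in the control and 4.18 and 2.12 in the IL-4 libraries. Both IL-4 values were below both control values, although control replicate 2 was closer to IL-4 replicate 1 than to the other control library. The normalised IL-4 height was 0.484 times that of the control (log2 difference −1.05 ± 0.558 SE, 95% interval −2.16 to 0.07, limma adjusted p = 0.6345). This was the lowest ratio of the 23 regions, and it did not pass the test. The log2 difference was −0.54 without control replicate 1 and −0.67 without IL-4 replicate 2. By RT-qPCR of mRNA, the paper reports Hbegf and Edn1 as genes that IL-4 activates in a STAT6-dependent way. For the activated genes it selected, the paper also reports STAT6-bound enhancers with more histone acetylation and RNA polymerase II after IL-4. An mRNA level and a promoter peak height are unlike measures, and how they relate at Hbegf was not tested. The IL-4 time of the mRNA values may also differ from the 1 h used here. The Hbegf promoter peak was not strong even in control replicate 1, where it was highest, at the 45.2 percentile of promoter peaks. In IL-4 replicate 2, where it was lowest, it stood at the 0.520 percentile. The other Hbegf regions were found in a single library each. A region in intron 3 at 36512345 to 36512502, with a STAT6 match, had a peak of 7.54 in IL-4 replicate 2, and an intergenic region +17797 bp from the TSS had a peak of 3.78 in control replicate 2.

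A primer pair for enhancer RNA downstream of Hbegf, taken from the study's primer list, was located by sequence. Its amplicon of 65 bp lay on chromosome 18 at 36472901 to 36472965, 42.9 kb from the Hbegf TSS, and overlapped no peak. The nearest region, 301 bp away, was assigned to Pfdn1 and therefore is not counted with Hbegf. It held 1 STAT6 match, and its heights were 6.74 and 7.46 in the control and 13.88 and 3.85 in the IL-4 libraries. The IL-4 libraries were the highest and the lowest of the 4, so the groups overlapped (log2 difference 0.31 ± 0.529 SE, limma adjusted p = 0.9286). The paper reports that enhancer RNA at its activating STAT6 sites followed polymerase binding after IL-4, and that this change was lost without STAT6. Enhancer RNA and peak height are unlike measures, and their relation at the Hbegf and Edn1 primer sites was not tested.

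Areg encodes amphiregulin and Ereg epiregulin, and the genes lie on chromosome 5 at 91139599 to 91148432 and at 91074617 to 91093649. The Areg promoter region at 91139449 to 91139812 had heights of 7.11 and 4.95 in the control and 7.97 and 1.51 in the IL-4 libraries. The height of 1.51 is below 2, the score of the q cut-off named in the methods. With a height minimum of 2, this region was not present in all 4 libraries and 22 regions could be tested. The groups overlapped, since IL-4 replicate 1 was the highest and IL-4 replicate 2 the lowest (log2 difference −0.43 ± 0.573 SE, limma adjusted p = 0.9018). Without IL-4 replicate 2 the log2 difference was 0.52, so that 1 library set its direction. A region in the 3′ UTR of Areg had a peak of 6.18 in control replicate 2 and of 2.95 in IL-4 replicate 1, and the other Areg regions had a peak in control replicate 2 alone. Ereg had no promoter region. Its single region, in intron 1 at 91083170 to 91083364, had heights of 11.20 and 4.95 in the control libraries, a height of 6.29 in IL-4 replicate 2 and no peak in IL-4 replicate 1. It held a pair of AP-1 matches and a STAT match with the 3-base spacing.

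Edn1 lies on chromosome 13 at 42301476 to 42307990, and 10 of its 11 regions were intergenic. The promoter region at 42301245 to 42301658, whose upstream part with the STAT6 match TTCTGGAGAA is shown above, had heights of 6.64 and 6.35 in the control and 10.68 and 9.14 in the IL-4 libraries. Both IL-4 libraries were higher than both control libraries, and the control values were close to each other. The normalised IL-4 height was 1.79 times that of the control (log2 difference 0.84 ± 0.493 SE, 95% interval −0.15 to 1.83, limma adjusted p = 0.6781), which did not pass the test. In percentiles of the promoter peaks of each library, the heights stood at 23.4 and 24.1 in the control group and at 46.6 and 47.2 in the IL-4 group.

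The distal Edn1 regions reached from −55350 to +135512 bp. The highest was the +27480 bp region at 42328571 to 42328936, with heights of 27.47 and 33.36 in the control and 40.23 and 27.58 in the IL-4 libraries, at the 95.4 to 99.4 percentile of all regions of its library. The groups overlapped there (log2 difference 0.26 ± 0.216 SE, limma adjusted p = 0.8060). At the +66633 bp region the heights were 7.76 and 10.88 in the control and 15.65 and 11.56 in the IL-4 libraries, so both IL-4 values were higher (log2 difference 0.80 ± 0.425 SE, limma adjusted p = 0.6345). Over the 6 Edn1 regions with a peak in every library, the log2 difference was above 0 at 5 and below 0 at 1. The mean normalised log2 height over these regions was 3.50 and 3.60 in the control and 4.10 and 3.68 in the IL-4 libraries, a difference of 0.34 (exact permutation p = 0.3333, the smallest possible). Control replicate 2 and IL-4 replicate 2 were close, and without normalisation the groups overlapped (difference 0.12, exact permutation p = 1). Without IL-4 replicate 1 the difference was 0.13.

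The exception was the −42620 bp region at 42258459 to 42258830, with heights of 20.15 and 14.18 in the control and 19.36 and 7.03 in the IL-4 libraries (log2 difference −0.31 ± 0.376 SE, limma adjusted p = 0.8857). IL-4 replicate 1 was close to control replicate 1, and IL-4 replicate 2 was the lowest. Without IL-4 replicate 2 the log2 difference was 0.24. The study's primer pair for enhancer RNA upstream of Edn1 gave an amplicon of 68 bp at 42258872 to 42258939, which overlapped no peak and lay 42 bp from this region. The region held no STAT6 match.

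Igf1 lies on chromosome 10 at 87858265 to 87937047. It had the most regions of the 8 genes, 14 of them intergenic, between −168045 and +47875 bp. Of the 10 with a peak in every library, the log2 difference was above 0 at 8 and below 0 at 2. The mean normalised log2 height over these 10 regions was 3.15 and 2.93 in the control and 3.50 and 3.57 in the IL-4 libraries, a difference of 0.49 (exact permutation p = 0.3333, the smallest possible). The groups did not overlap on this measure, but without normalisation they did (difference 0.28, exact permutation p = 0.6667).

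The upstream regions between −53084 and −16391 bp differed in the order of the groups. At the −28187 bp region (87830709 to 87830978, the first sequence above), with heights of 6.22 and 5.25 in the control and 15.44 and 9.97 in the IL-4 libraries, both IL-4 values were above both control values. The normalised IL-4 height was 2.57 times that of the control (log2 difference 1.36 ± 0.484 SE, 95% interval 0.39 to 2.33, limma adjusted p = 0.3891). This was the highest ratio among the 23 regions, and it was past 0.05 only without adjustment. The next region upstream, at −28906 bp (87829988 to 87830354), had the opposite order. Its heights were 11.46 and 7.99 in the control and 6.29 and 4.86 in the IL-4 libraries (log2 difference −0.56 ± 0.510 SE, limma adjusted p = 0.8262), so the IL-4 values were the lower ones. The next region downstream, at −26756 bp, had heights of 6.26 and 12.05 in the control and 21.47 and 7.77 in the IL-4 libraries. The replicates were far apart there and the groups overlapped (log2 difference 0.83 ± 0.458 SE, limma adjusted p = 0.6492). Single libraries set its size, with a log2 difference of 0.24 without control replicate 1, 0.26 without IL-4 replicate 1, and 1.38 and 1.37 without control and IL-4 replicate 2.

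The −41968 bp region at 87816905 to 87817254 held a pair of AP-1 matches and a STAT match with the 3-base spacing (TTCATAGAA, not capitalised above). Its heights were 26.50 and 20.54 in the control and 12.45 and 13.94 in the IL-4 libraries. It was the highest region between −53084 and −16391 bp in both control libraries, and both IL-4 values were below both control values. The normalised IL-4 height was 0.644 times that of the control (log2 difference −0.63 ± 0.315 SE, 95% interval −1.27 to −0.0038, limma adjusted p = 0.5994). The −53084 bp region at 87805760 to 87806117, which held 1 AP-1 match, had the reverse order, with heights of 12.40 and 11.72 in the control and 22.26 and 14.53 in the IL-4 libraries (log2 difference 0.79 ± 0.354 SE, limma adjusted p = 0.5528). These 2 regions and the −28187 bp region were the 3 with an unadjusted limma p under 0.05.

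**Figure D3:**
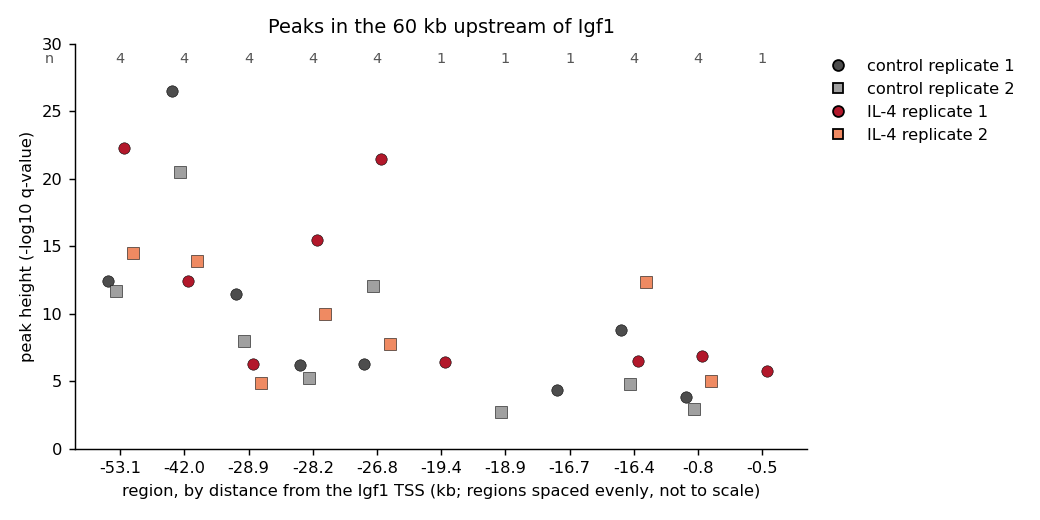
Peak height (−log10 q-value, linear axis) in each library at the regions between −53084 and −463 bp of Igf1, spaced evenly, with the number of libraries that had a peak written above. The IL-4 points are above the control points at −53084, −28187 and −842 bp and below them at −41968 and −28906 bp.

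Nearest to Igf1, the promoter region at −842 bp (87858132 to 87858329), which spans the outermost RefSeq start of the gene, was low in every library. Its heights were 3.86 and 2.96 in the control and 6.88 and 5.06 in the IL-4 libraries. Both IL-4 values were higher, and the normalised IL-4 height was 2.11 times that of the control (log2 difference 1.08 ± 0.545 SE, 95% interval −0.02 to 2.17, limma adjusted p = 0.6123). In percentiles of promoter peaks, the heights stood at 6.35 and 2.78 in the control group and at 25.5 and 19.9 in the IL-4 group. A second promoter region at −463 bp had a peak of 5.75 in IL-4 replicate 1 alone. The intron 2 region at +47875 bp had heights of 12.33 and 2.66 in the control and 9.26 and 6.29 in the IL-4 libraries, and here the control libraries enclosed the IL-4 libraries. At the far end, the −162504 bp region was nearly level, with heights of 27.85 and 32.06 in the control and 27.10 and 30.95 in the IL-4 libraries (log2 difference 0.08 ± 0.228 SE, limma adjusted p = 0.9599). Its 95% interval of −0.38 to 0.53 was among the narrower ones.

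One region was IL-4-only, meaning that both IL-4 libraries and neither control library had a peak. It lay −126887 bp from the Igf1 TSS at 87732090 to 87732240, with heights of 7.96 and 2.49. One region was control-only, at chromosome 17 positions 45953652 to 45953852 and +71410 bp from the Vegfa TSS, with heights of 9.70 and 3.78. Each made up 1.79% of the 56 regions, against 2.53% IL-4-only and 4.33% control-only regions over all 60710. Both were beyond 50 kb of the TSS of the gene whose name they carried.

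Pdgfa lies on chromosome 5 at 138976014 to 139000792. Its promoter region at 138994837 to 138995139 had heights of 7.06 and 4.79 in the control and 11.10 and 8.78 in the IL-4 libraries. Both IL-4 values were higher, and the normalised IL-4 height was 2.0 times that of the control (log2 difference 1.00 ± 0.503 SE, 95% interval −0.0085 to 2.01, limma adjusted p = 0.6089). The 3 distal regions with a peak in every library were close to 0 by comparison, with log2 differences of −0.05 ± 0.299, −0.02 ± 0.368 and −0.09 ± 0.528 (SE). The first of them, −20176 bp from the TSS at 139014894 to 139015427, had a STAT6 match (TTCAGCGGAA), an AP-1 match and a PU.1 match. Its heights were 21.74 and 19.12 in the control and 18.95 and 15.76 in the IL-4 libraries, which after normalisation left a ratio of 0.969 (95% interval of the log2 difference −0.65 to 0.55). Both normalised IL-4 values were still below both control values. This nearly level region is therefore counted among the 4 regions without overlap and with lower IL-4 values. The region at −29722 bp, also with a STAT6 match (TTCCTAAGAA), lay in intron 9 of the neighbouring gene Prkar1b, a subunit gene of protein kinase A. Its heights were 13.33 and 17.06 in the control and 14.39 and 11.27 in the IL-4 libraries, and the groups overlapped. A STAT6 match was therefore present both at regions with higher IL-4 heights and at regions that were nearly level.

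Pdgfb lies on chromosome 15 at 79995865 to 80024614 and had a single region with a peak in every library, at −20262 bp (80034943 to 80035196). The heights were 13.91 and 8.71 in the control and 9.35 and 9.03 in the IL-4 libraries, with control replicate 1 above the other 3 (log2 difference −0.01 ± 0.445 SE, 95% interval −0.91 to 0.88, limma adjusted p = 0.997). The Pdgfb promoter region had a peak of 4.0 in IL-4 replicate 1 alone. The −15826 bp region was low, with heights of 3.38 and 3.02 in the control libraries, 2.26 in IL-4 replicate 1 and no peak in IL-4 replicate 2.

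Vegfa lies on chromosome 17 at 46016993 to 46032377 and had no region with a peak in every library, so no difference could be tested. Its promoter region at 46032360 to 46032497 had a peak of 6.18 in control replicate 2 and of 3.45 in IL-4 replicate 2, and none in either replicate 1. The 5′ UTR had a peak of 4.10 in control replicate 2, and intron 1 had a peak of 4.31 in control replicate 1. Peaks at the start of Vegfa were thus low and differed between replicates of the same group. Of the 8 genes, 7 had a promoter region and 5 had one present in all 4 libraries. Areg is among the 5 only through its low peak of 1.51 in IL-4 replicate 2. Counted by regions, 5 of the 8 promoter regions were present in all 4 libraries, against 69.4% of the 11415 promoter regions.

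**Figure D4:**
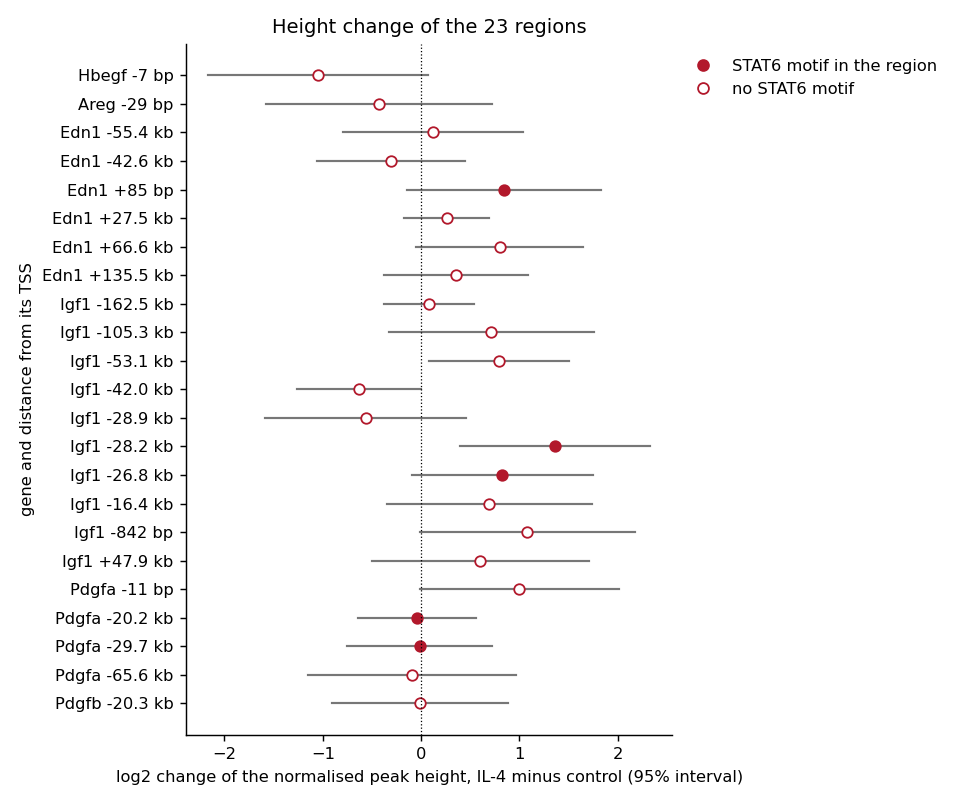
Log2 difference of the normalised peak height, IL-4 minus control, for the 23 regions, with 95% intervals from limma and filled points for regions with a STAT6 match. The intervals of 20 regions include 0, and the 5 filled points range from −0.05 to 1.36.

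The motifs were counted over all 56 regions. A STAT6 match was present in 6 regions (10.7%, against 7.22% of all regions). The STAT match with 3 bases between the half-sites was present in 7 regions (12.5%, against 6.90%), an AP-1 match in 14 (25.0%, against 18.1%) and a PU.1 match (GAGGAAGT) in 8 (14.3%, against 9.88%). These shares are given as descriptions, without a test.

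Receptors, further ligands, binding proteins and processing enzymes of the same pathways were counted from a list of 45 symbols (Figf and Vegfd name the same gene), of which 33 had a region and 88 of their 245 regions had a peak in every library. Of these 88, 0 passed the test in either direction (limma, lowest adjusted p = 0.3725), and the log2 difference was above 0 at 41 and below 0 at 47, with a median of −0.05. IL-4-only regions numbered 3 (1.22%, against 2.53% of all regions) and control-only regions 7 (2.86%, against 4.33%), so neither kind was more frequent than in the background. Intron 1 of Pdgfc, which encodes a further PDGF ligand, held 2 of the IL-4-only regions. One, on chromosome 3 at 81057742 to 81058048, had heights of 5.16 and 10.21 and 2 STAT6 matches, and the other, at 81058542 to 81058839, had heights of 8.17 and 4.70. The last lay 507 bp from the TSS of Vegfb, which encodes a VEGF-family ligand, with heights of 2.69 and 3.73. It was annotated as the end of a transcript and not as a promoter. The control-only regions were assigned to receptor or ligand genes, namely Erbb3, Nrg3, Nrg1, Ednrb, Igf1r, Igf2r and Insr. At the promoter of Erbb3, which encodes a neuregulin receptor of the EGF receptor family, the control heights were 4.21 and 5.40.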

How the data were processed

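ATAC-seq was carried out on BMDMs in 2 control libraries and 2 libraries treated with IL-4. Per the submitters' processing notes and the study's methods, the authors aligned reads to mm10 with BWA 0.7.10, called peaks in each library with MACS2 2.0.10, removed blacklisted regions and annotated peaks with HOMER 4.2. SAMtools 0.1.19 is also named. Tn5 shifting and duplicate handling are not given in the sources used here. The deposited peak scores carry no stated unit and were taken to be −log10 q-values, since the lowest lay at 1.3 to 1.32. The methods name a q cut-off of 0.01, which is a score of 2, yet 133 to 603 peaks per library scored below it.

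Replicates were not pooled. Peaks were merged at 1 bp, and each region took its highest peak per library. Log2 heights of regions present in all 4 libraries were quantile-normalised and fitted with limma 3.58.1 in R 4.3.3 (trend, Benjamini-Hochberg over all 25442 regions, threshold 0.05). No read counts were used, so depth is unknown and the authors' read-based comparison was not run. Single values were compared by exact permutation. Motifs were exact matches on both strands. The fit was tested on simulated heights with planted changes larger than any member difference, so it was not tested at the size of the member differences. Merging and the motif search were tested on small made-up examples. Sequences came from the RefSeq genome GRCm38.p6, none is shown for chromosome 18, and 1 further sequence and 1 marker gene are not reported here. The genes, gene lists and motifs were chosen with earlier results of these data known. Regions described one by one were promoters, group-only regions, the 3 largest differences each way, regions with a STAT6 match and those at primer sites, and other regions were chosen after their values were seen. Alternatives covered normalisation, the limma trend, a replicate block, a height minimum of 2, merging within 500 bp, the log scale, a 50 kb limit and leaving out each library.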

Additional observations from a re-analysis of the deposited data

How the results depend on the processing

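No member region passed the threshold under any alternative, and the lowest adjusted p over the 12 regions recomputed singly was 0.3262 (Igf1 −28187 bp, replicate block). The Igf1 −28187 bp difference kept its direction in 11 of 11 alternatives (0.61 to 1.51). Without normalisation the median over all regions was −0.21, 12 member regions were above 0 and 11 below, and the means were 0.12 (Edn1), 0.28 (Igf1) and −0.01 (Pdgfa, −0.01314). With median-centred heights the numbers were 15 and 8, and Pdgfa −20176 bp was 0.0025. Merging within 500 bp joined Igf1 −28906 with −28187 bp, at 0.61. This value belongs to the joined region and is no separate check of −28187 bp, and its direction is opposite to that of −28906 bp alone. Leaving out each library in turn gave mean differences of −1.56 to −0.54 (Hbegf), −1.38 to 0.52 (Areg), 0.13 to 0.55 (Edn1), 0.37 to 0.60 (Igf1), 0.18 to 0.24 (Pdgfa) and −0.29 to 0.23 (Pdgfb). Areg was above 0 at 0.52 and Edn1 −42620 bp at 0.24 without IL-4 replicate 2 (range −0.86 to 0.24), Pdgfa −29722 bp at 0.26 without control replicate 2 (range −0.30 to 0.26), and Pdgfb at 0.23 without control replicate 1 and 0.13 without IL-4 replicate 1. Peak numbers differed by −3.5 to −2.5. IL-4-only and control-only regions numbered 0 and 0 within 50 kb, 2 and 3 when 1 library of the other group was tolerated, and 1 to 6 and 2 to 9 with a library left out, where fewer libraries have to meet the rule. With 100 bp added at both sides 11 regions held a STAT6 match, and the share of all regions was 12.4%. At the primer sites 0 libraries had a peak overlapping the amplicon at Edn1 or Hbegf, against 4 and 4 within 1 kb. Where no cause is named, the cause was not tested.

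The labels do not say what an equal replicate number stands for, and deviations of libraries with the same number gave no sign of pairing (r = 0.0068 over regions). With a replicate block 0 member regions were called, all 19 results kept direction and call, and 14 of all regions were called against 6 without it. Unknown depth limits every height, and 2 libraries per group limit the permutation tests.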
